A study of Danio rerio with 6 samples.

Results

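The protogenin genes prtga and prtgb are the paired zebrafish counterparts of the vertebrate gene PRTG, and they were followed here in zebrafish embryos injected with a morpholino against setb. Both genes were chosen by their measured difference between setb MO1 and control embryos in an earlier analysis of these arrays, so that difference is described below and is not tested. They are 2 of 11304 genes on the arrays, and each was measured by 1 probe set whose annotation gives that gene symbol alone. RNA came from whole zebrafish embryos 48 h after fertilization, in 3 samples injected at the one-cell stage with a control morpholino and in 3 samples injected at that stage with setb MO1. Morpholinos are antisense oligonucleotides that block translation or splicing of the transcript they bind. The setb gene is a zebrafish counterpart of SET, which encodes a chaperone of histones that also inhibits a protein phosphatase. Each sample was hybridised to 1 Affymetrix array. The labels name no strain and no mutant allele. Embryos were scored as normal-like, mild or moderate in phenotype, without the class being given for a sample. Whether replicates were separate clutches is not stated in the labels, so the p-values reflect only the spread among these samples and that spread may be technical.

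Protogenin is a transmembrane receptor of the immunoglobulin superfamily and belongs to the family of DCC and neogenin, receptors best known for guiding axons in response to netrins and repulsive guidance molecules. In vertebrate embryos PRTG transcripts are known from the elongating body axis, in the early neural tube and the presomitic mesoderm. In mouse the protein is found in the neural tube before neurons form, and forced expression holds back neuronal differentiation. Zebrafish at 48 h after fertilization have finished forming somites, and much of the early nervous system has already begun to differentiate.

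All values are log2 intensities, on which a difference of 1 is a 2-fold change. Array medians were 9.47 to 9.49, and the lowest value of an array was 5.11 to 5.90, well under every value of both protogenin genes. The deposited table holds only probe sets that reach 8.45 on at least 1 array. A gene whose values in one whole group lie under that level is in the table only through the group where it is higher and had to differ, so such genes are named as they occur below and get no p-value. They make up 410 of the 2692 genes that rose and 474 of the 2343 that fell. Without them 2282 rose and 1869 fell, but the shares of all genes given below include them. The list medians and mean levels below include them too. prtga and prtgb reach 8.45 in both groups, although prtga on control replicate 1 was under it, at 8.28. On control replicates 2 and 3 prtga was not far above it, at 8.97 and 9.06. No detection calls were used here, and the lowest value of an array is not a background level. Of 23 marker genes of embryonic tissues 20 were measured, covering 7 of 8 tissues and leaving out liver, and each was at 7.11 or higher on every array. The level of setb was 12.51, 12.48 and 12.38 in control and 12.69, 12.60 and 12.66 in setb MO1 embryos, a difference of 0.19 ± 0.07 (SE, limma adjusted p = 0.0471). That call was lost without any one array other than control replicate 1 (adjusted p = 0.0759 to 0.132), and since a morpholino can act without lowering its target transcript, setb does not check the labels.

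prtga was at a log2 intensity of 8.28, 8.97 and 9.06 in control replicates 1, 2 and 3. In setb MO1 replicates 1, 2 and 3 it was at 10.55, 10.22 and 10.86. Every setb MO1 array was above every control array, with a gap of 1.15 between the lowest setb MO1 and the highest control value. The group means were 8.77 ± 0.43 for control and 10.54 ± 0.32 for setb MO1 (SD, n = 3 each), a difference of 1.77 ± 0.23 (SE) or 3.41-fold.

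prtgb was at 10.13, 10.77 and 11.03 in control replicates 1, 2 and 3. In setb MO1 replicates 1, 2 and 3 it was at 12.39, 12.26 and 12.64. Again the groups did not overlap, and the gap was 1.23. The group means were 10.64 ± 0.46 for control and 12.43 ± 0.19 for setb MO1 (SD, n = 3 each), a difference of 1.79 ± 0.22 (SE) or 3.45-fold. Levels of different probe sets are not comparable, so the higher intensity of prtgb does not rank the transcripts of the paralogs. In bulk RNA, a difference in the number of expressing cells and a difference in RNA per cell cannot be told apart.

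**Figure D1:**
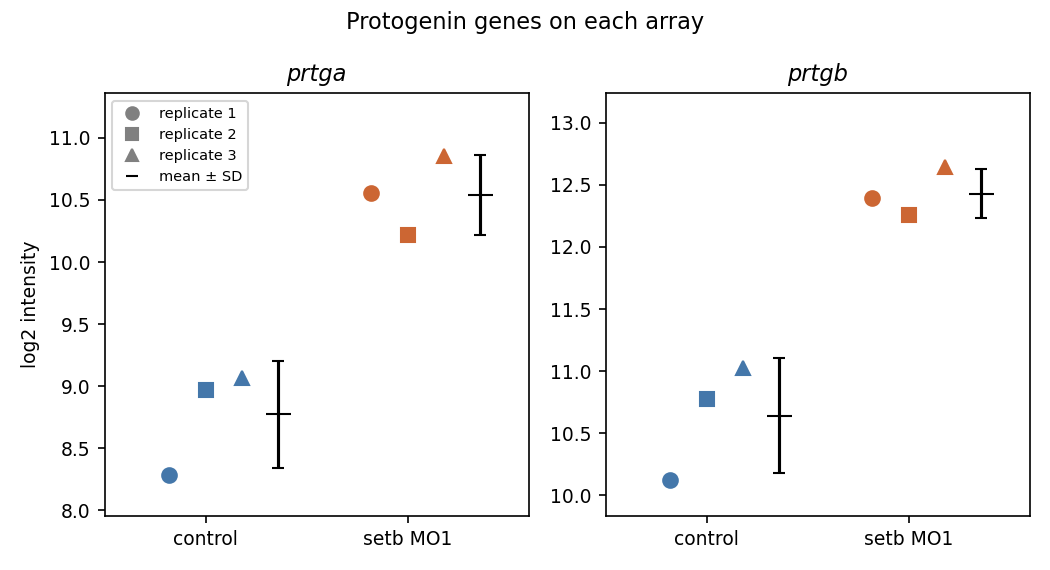
Log2 intensity of prtga (left) and prtgb (right) on each array, with marker shapes for replicates and the group mean ± SD (n = 3) in black; the vertical axes start at different values and span the same range. The setb MO1 arrays lie above the control arrays in both panels, and control replicate 1 is the lowest array of each.

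Higher levels in setb MO1 embryos were common on these arrays. Among all genes 30.6% had every setb MO1 array above every control array, and 23.8% rose at an adjusted p under 0.05. Because the genes were chosen on this contrast, their count of 2 is not read against these shares. In the order of the log2 change prtgb stood at place 10 and prtga at place 11 of 11304 genes. Directly above them was mmp9, a matrix metalloproteinase gene (1.79 ± 0.29, SE), and directly below them duox, a dual oxidase gene (1.73 ± 0.17). These neighbours differ from the protogenin genes by less than the standard errors, so the places are not an order beyond error.

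The paralogs also varied together inside the groups, which the choice of the genes did not use. Control replicate 1 was below its group mean by a log2 deviation of -0.49 for prtga and -0.52 for prtgb. Control replicate 3 was above it by 0.29 and 0.38, and setb MO1 replicate 3 was above its own group mean by 0.32 and 0.21. The 3 control arrays and the 3 setb MO1 arrays each stood in the same order for both genes. The ends of that order were not particular to the paralogs. Control replicate 1 was the lowest control array for 36.6% of all genes and 41.2% of the genes that rose. setb MO1 replicate 3 was the highest of its group for 36.8% and 45.2%. An even split would give each of 3 arrays 1 in 3 genes, so the shares of all genes are only a little above it. The 8 genes nearest in profile, described below and selected for that likeness, all had control replicate 1 lowest and setb MO1 replicate 3 highest. After each gene was centred on its mean over the 6 arrays, prtgb minus prtga lay between -0.10 and 0.16 on every array, while prtga itself spanned from -1.38 to 1.20. By the root-mean-square distance between such centred profiles, prtgb was the nearest of 11303 other genes to prtga and prtga the nearest to prtgb, at 0.0924. That distance includes the shared group difference, for which both genes were chosen. The ranks are therefore a description and do not measure likeness inside the groups. Probe sequences were not used here, and whether the paralogs' probe sets share signal was not tested.

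The spread among control arrays was wide for these genes. The SD over the control arrays was at least as large as that of 98.8% of all genes for prtga and 99.0% for prtgb. Among setb MO1 arrays the corresponding shares were 98.4% and 92.1%. Without control replicate 1 the differences were 1.52 for prtga (2.88-fold) and 1.53 for prtgb (2.89-fold). Without any other single array they lay between 1.61 and 1.93 for prtga and between 1.68 and 1.98 for prtgb.

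Clone and locus identifiers were passed over in the search for genes with similar profiles. The 8 remaining genes nearest to the mean profile of both protogenin genes were bmb, rbl2, bbc3, arrdc2, optc, fsta, nr6a1a and exo5. Their root-mean-square distances were 0.189 to 0.294 over the 6 arrays. They were selected for a profile of this size, so their changes are given as a description, with no test. bmb, which encodes the brambleberry protein of nuclear envelope fusion in early zebrafish embryos, averaged 9.39 ± 0.28 in the control and 10.91 ± 0.15 in the setb MO1 arrays (SD, n = 3 each). rbl2, a gene of the retinoblastoma family, was at 8.86 ± 0.20 and 10.47 ± 0.16. bbc3, which encodes the pro-apoptotic protein Puma, was at 8.17 ± 0.30 and 9.85 ± 0.35. fsta, a gene for the activin antagonist follistatin, was at 8.96 ± 0.07 and 10.52 ± 0.13. All 8 genes except arrdc2 (control SD 0.58) varied less among control arrays than the protogenin genes. nr6a1a, which encodes a nuclear receptor of early embryos and germ cells, was at 8.68 ± 0.25 and 9.94 ± 0.22. The other 3, arrdc2, optc and exo5, had log2 differences of 1.47 ± 0.28, 1.38 ± 0.16 and 1.24 ± 0.17 (SE). bbc3 and exo5 are in the table only through the setb MO1 group.

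**Figure D2:**
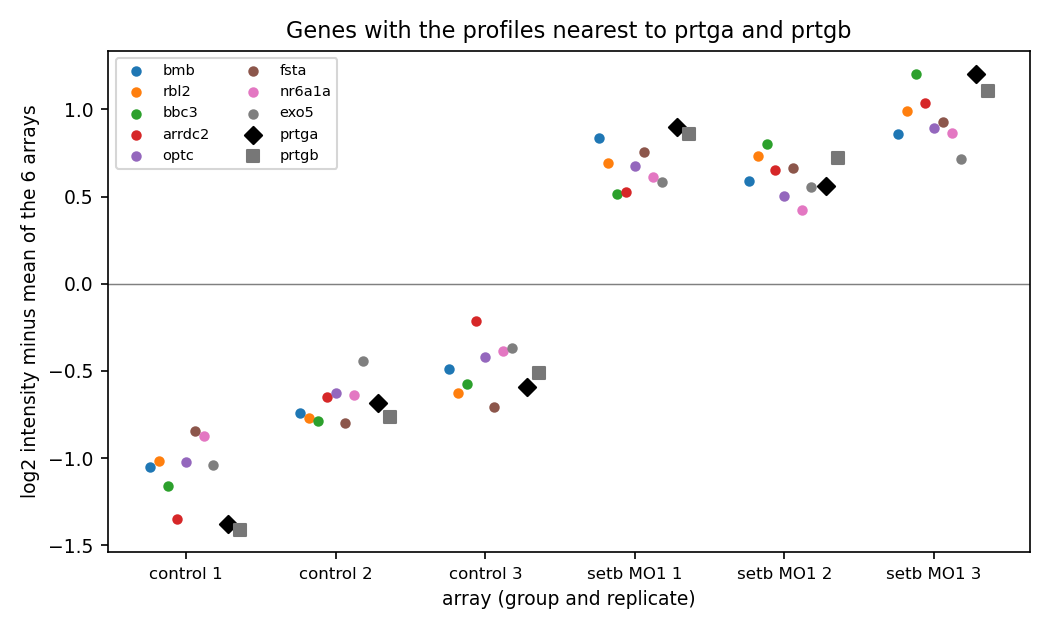
Log2 intensity of prtga, prtgb and the 8 genes nearest in profile (clone and locus identifiers passed over), each minus its mean over the 6 arrays, by array; points are single arrays, shifted sideways for legibility. All genes shown lie below 0 in the control and above 0 in the setb MO1 arrays, and prtga and prtgb lie close to each other on each array.

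Of the 5 other receptor genes of the DCC family, dcc fell and the other 4 did not pass, with a median log2 change of 0.01 against 0.02 over all genes. By the limma fit 0 were higher at the adjusted threshold and 0 at an unadjusted p under 0.05. With 23.8% of all genes risen and 20.7% fallen, counts of 0 and 1 in 5 are near the background. dcc, the netrin receptor of growing axons, was at 9.07, 9.22 and 9.34 in control and at 8.79, 8.67 and 8.74 in setb MO1 embryos (-0.48 ± 0.08, SE, limma adjusted p = 0.00362). The neogenin genes neo1a and neo1b, receptors for netrins and repulsive guidance molecules, changed by -0.06 ± 0.09 and 0.15 ± 0.08 (adjusted p = 0.627 and 0.177). igdcc3 and igdcc4, whose mammalian counterparts are known as Punc and Nope, changed by 0.01 ± 0.08 and 0.03 ± 0.08 (adjusted p = 0.899 and 0.772). Their control and setb MO1 values overlapped, with igdcc3 at 11.17 to 11.27 and 11.13 to 11.36.

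Of 13 measured ligands and co-receptors of DCC family receptors, 4 rose, 6 fell and 3 did not pass, with a median of -0.04. The background was 23.8% risen and 20.7% fallen, and 4 fell without dscama and dscamb, which are in the table only through the control group. The netrin genes ntn1a and ntn1b rose, by 0.74 ± 0.12 and 0.39 ± 0.09 (SE, limma adjusted p = 0.0022 and 0.0112), and ntn2 fell by 0.50 on the log2 scale (± 0.08, adjusted p = 0.00278). ntn1a was at 9.10, 9.42 and 9.54 in control and at 10.14, 10.02 and 10.11 in setb MO1 embryos. The groups did not overlap. Among the repulsive guidance molecules, which bind neogenin, rgma (-0.50 ± 0.07) and rgmb (-0.77 ± 0.08) fell and rgmd rose (0.24 ± 0.07, adjusted p = 0.0228). The call on rgmd was lost without control replicate 2 (adjusted p = 0.0905), setb MO1 replicate 2 (0.069) or setb MO1 replicate 3 (0.0729). hjv, the iron-regulating member of that family, changed by 0.03 ± 0.08 (adjusted p = 0.753).

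Among the other receptors and binding partners of netrins, unc5b, a receptor for repulsion, rose by 0.54 ± 0.12 (SE, limma adjusted p = 0.00867). Its relatives unc5cb and unc5da changed by 0.21 ± 0.11 and -0.04 ± 0.09 (adjusted p = 0.144 and 0.748). The cell adhesion genes dscama and dscamb, whose mammalian counterpart is a netrin receptor, were lower in setb MO1 embryos by log2 differences of -0.76 ± 0.07 and -1.36 ± 0.06. dscamb was at 9.65, 9.70 and 9.73 in control and at 8.35, 8.31 and 8.34 in setb MO1 embryos, so that its setb MO1 values lay under the level needed to be in the table. draxina, a gene for a secreted guidance protein that binds DCC in vertebrates, fell by 0.30 (adjusted p = 0.00777).

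Of the proteins known from mouse to act with protogenin, dnajb11 encodes ERdj3, a chaperone of the endoplasmic reticulum that was described as a protogenin ligand. It was at 11.90, 11.75 and 11.75 in control and at 11.16, 11.23 and 11.28 in setb MO1 embryos. dnajb11 fell by 0.58 ± 0.07 (SE, limma adjusted p = 0.000827), opposite in sign to prtga and prtgb. The integrin alpha 5 gene itga5 rose by 0.33 ± 0.08 (adjusted p = 0.0169), a call lost without setb MO1 replicate 1 (0.0565) or 3 (0.0561). The integrin beta 1 genes were split, with itgb1a lower (-0.43 ± 0.06, adjusted p = 0.0011) and itgb1b higher (0.29 ± 0.07, 0.0133, but 0.0545 without control replicate 2). itgb1b.2 changed by -0.34 ± 0.13 (0.0763), and passed without control replicate 1 (0.0443) or setb MO1 replicate 2 (0.0384). Over the receptors, ligands and partners together 6 of 23 genes rose and 9 fell, or 7 without dscama and dscamb, beside 23.8% risen and 20.7% fallen over all genes.

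**Figure D3:**
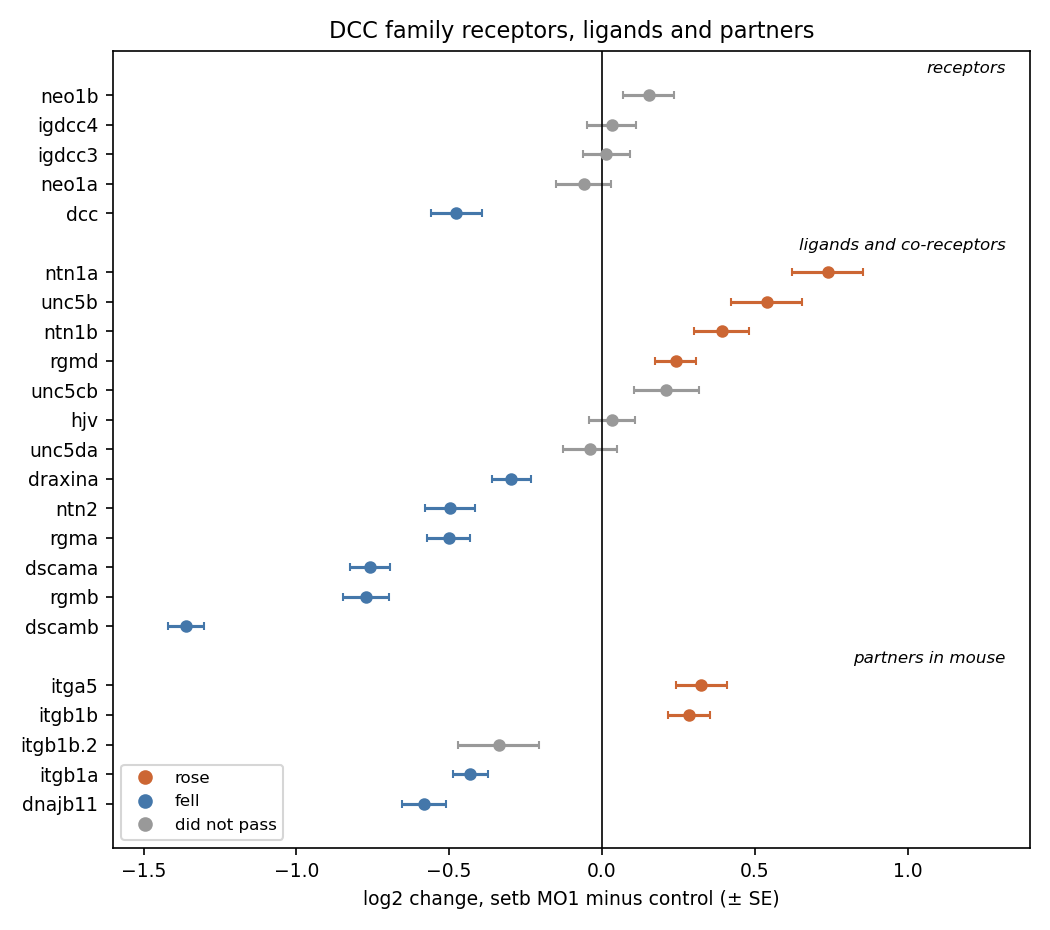
Log2 change of setb MO1 minus control (horizontal axis, ± SE from limma, n = 3 and 3) for the other DCC family receptors, for ligands and co-receptors, and for partners known from mouse; colours mark the call at an adjusted p under 0.05. The changes lie between -1.36 and 0.74. Those of prtga and prtgb, not plotted, were 1.77 and 1.79. These genes were chosen on this contrast, so their larger changes are not read as a result. Colours also mark dscama and dscamb as fallen, although they are in the table only through the control group.

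The tissues in which protogenin is known earlier in development were followed through their own genes. Of 47 listed genes of presomitic mesoderm, somites and tailbud, 20 were measured, of which 8 rose, 4 fell and 8 did not pass, beside 23.8% risen and 20.7% fallen over all genes. Without vox and cyp26a1, which are in the table only through the setb MO1 group, 6 rose. With vox and cyp26a1 included, the median log2 change was 0.07, and the list's mean level was 9.50 to 9.58 on control and 9.64 to 9.70 on setb MO1 arrays. fgf8a, a growth factor of the tailbud and brain boundaries, was at 8.51, 8.47 and 8.49 in control and 9.33, 9.59 and 9.54 in setb MO1 embryos (0.997 ± 0.082, SE, limma adjusted p = 0.000239). Its control values lay only just above the 8.45 needed to be in the table. The mesodermal T-box gene tbxta (0.93 ± 0.09) and the retinoic acid synthesis gene aldh1a2 (0.55 ± 0.06) rose as well. vox, an early ventral homeobox gene, was at 8.15, 7.97 and 7.90 in control and at 8.94, 8.91 and 8.85 in setb MO1 embryos. gdf11, a TGF-beta ligand of axial patterning, fell by 1.24 ± 0.09, and the somite homeobox gene uncx4.1 by 0.75 ± 0.07. Most segmentation clock and presomitic genes of the list, msgn1, tbx6, her1 and her7 among them, were not among the probe sets with 1 symbol analysed here, so this list rests on genes that are also expressed elsewhere. Of such genes that were measured, named after their values were seen, dlc (-0.69 ± 0.07) and lfng (-0.25 ± 0.07) fell. her12 (-0.17 ± 0.12), dld (-0.11 ± 0.06) and tbx16l (-0.22 ± 0.08) did not pass. wnt3a (1.08 ± 0.13), bmp4 (0.37 ± 0.08) and wnt5b (0.32 ± 0.07), genes of the list named in the same way, rose.

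In the neural crest protogenin is known from mouse to act with integrin. Of 20 measured crest genes 5 rose, 5 fell and 10 did not pass, with a median of 0.01, counts near the 23.8% and 20.7% of all genes. ednrab, an endothelin receptor gene, rose by 1.03 ± 0.14, msx1b by 0.38 ± 0.06, snai1b by 0.68 ± 0.16 and msx3 by 0.41 ± 0.12 (SE, limma adjusted p = 0.00127 to 0.0253). tfap2e and sox9b, transcription factor genes of the crest and its derivatives, fell (-0.94 ± 0.06 and -0.76 ± 0.06). The early crest gene foxd3 (-0.03 ± 0.08, adjusted p = 0.778) and the pan-crest gene sox10 (0.21 ± 0.10, 0.118), named after their values were seen, did not pass. Without control replicate 2, setb MO1 replicate 2 or setb MO1 replicate 3, 3 genes rose. For msx3 the adjusted p was 0.0568 and 0.0847 when control replicates 1 and 2 were left out, and 0.0658 and 0.0754 when setb MO1 replicates 2 and 3 were, so that its call was lost.

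Of 25 measured progenitor genes of the neuroepithelium 6 rose, 9 fell and 10 did not pass, with a median of -0.17, and 3 rose without control replicate 2. The share that rose is near the 23.8% of all genes, and 8 fell without sox21b, which is in the table only through the control group, beside 20.7% of all genes. her3 (0.63 ± 0.12, SE) and zic2a (0.41 ± 0.08) rose, the first a Hairy-related repressor and the second a zinc finger factor of the dorsal neural tube (limma adjusted p = 0.00471 and 0.00515). fabp7a (-1.62 ± 0.13), pax6b (-0.96 ± 0.08), pax6a (-0.55 ± 0.08) and the Notch target her4.1 (-0.76 ± 0.12) fell. Among genes named after their values were seen, sox2 (-0.0017 ± 0.13, limma adjusted p = 0.992), sox19a (-0.06 ± 0.07, 0.46) and nes (-0.17 ± 0.10, 0.198) did not pass. her9, likewise named, rose by 0.65 ± 0.14 (limma adjusted p = 0.00826). Of 26 measured genes of neurogenesis and newborn neurons 23 fell, 0 rose and 3 did not pass, with a median of -0.52, beside 20.7% fallen and 23.8% risen over all genes. Without neurod1, neurod6b, isl2b and snap25b, which are in the table only through the control group, 19 fell. At an unadjusted p under 0.05 the limma fit also found 0 higher. The list's median and its mean log2 level include neurod1, neurod6b, isl2b and snap25b. That mean level was 10.65 to 10.70 on control and 10.02 to 10.08 on setb MO1 arrays. The proneural gene neurod4 (-1.46 ± 0.06) and the zinc finger genes insm1a (-1.33 ± 0.07) and myt1b (-1.28 ± 0.07), all active as neurons form, fell, and the proneural gene neurod1 averaged 9.56 ± 0.12 on the control and 8.11 ± 0.13 on the setb MO1 arrays (SD, n = 3 each). prtga and prtgb were chosen for their difference in this contrast, so their higher level beside the lower level of these genes is not read as a link. The part of cell composition in these differences was not tested.

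Genes of the Lin28 and let-7 pathway, which marks early stages of development, were measured because lin28 proteins hold back the maturation of let-7 microRNAs. Of 18 measured genes 7 rose, 1 fell and 10 did not pass, with a median of 0.10, beside 23.8% risen and 20.7% fallen over all genes. Without lin28ab, which is in the table only through the setb MO1 group, 6 rose. lin28aa was at 10.66, 10.74 and 10.89 in control and at 11.86, 11.80 and 12.10 in setb MO1 embryos, so that the groups did not overlap (1.16 ± 0.10, SE, limma adjusted p = 0.000272, 2.23-fold). Its paralog lin28ab was at 7.96, 8.25 and 8.44 in control and at 8.86, 9.04 and 9.20 in setb MO1 embryos. The chromatin factor genes arid3a (0.39 ± 0.07) and arid3c (0.31 ± 0.07) rose less. trim71, a ubiquitin ligase gene regulated by let-7, was named once its value was known and rose by 0.73 ± 0.16 (adjusted p = 0.00969). hmga1a fell by 0.17 ± 0.06 (adjusted p = 0.0495), a call lost without any single array (0.0835 to 0.124). The fetal RNA-binding protein gene igf2bp1 (0.04 ± 0.07, adjusted p = 0.697) and hmga2 (0.12 ± 0.06, 0.156), named after their values were seen, did not pass.

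**Figure D4:**
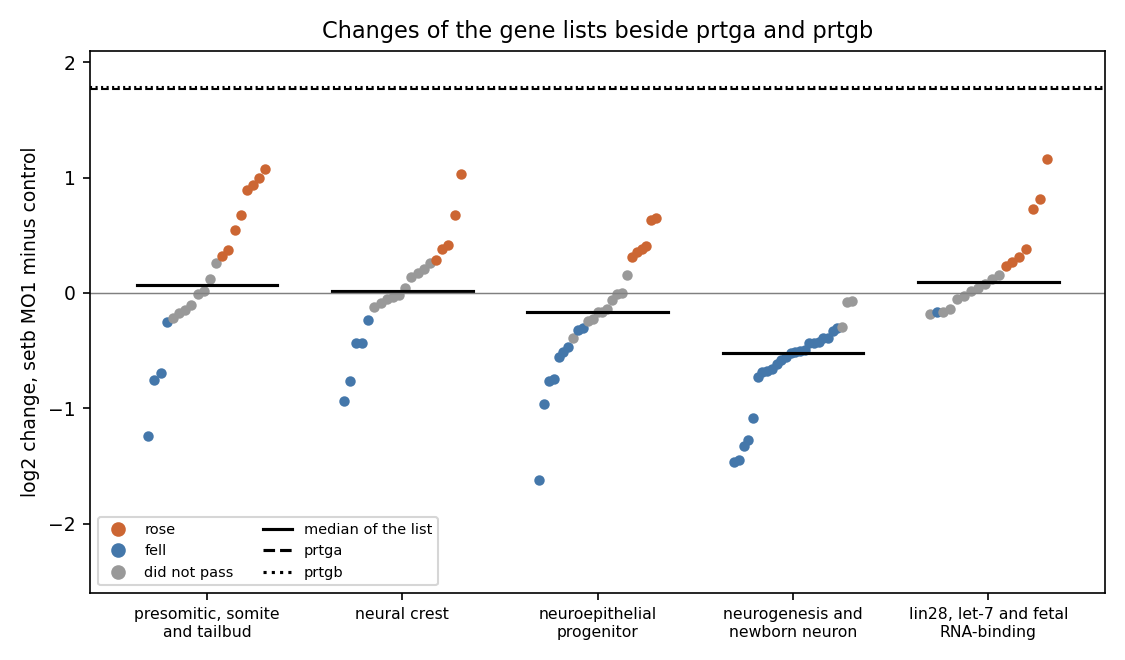
Log2 change of setb MO1 minus control (vertical axis) for the measured genes of 5 lists, each point a gene in order of its change, with the list's median as a bar and the changes of prtga and prtgb as horizontal lines. The genes of neurogenesis and newborn neurons lie below 0, and the other lists lie on both sides. Every listed gene lies below the lines at 1.77 and 1.79. As prtga and prtgb were chosen on this contrast, that position is not read as a result. Colours also mark calls for genes in the table only through the control or the setb MO1 group, which the text names.

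Genes around prtga and prtgb on their chromosomes were examined because a difference shared by a long stretch of the genome could show there. The 5 nearest measured genes on each side of each gene were taken from the order of the RefSeq gene table. Genes that were not measured lie between them. The neighbours stood 1 to 14 genes away from prtga and 1 to 30 genes away from prtgb, so a shorter stretch could be missed. Of these 20 genes 3 rose, 6 fell and 11 did not pass, and without pygo1 and nell2a, each in the table through 1 group only, 2 rose and 5 fell. Over all genes, with genes of that kind included, 23.8% rose and 20.7% fell, so the counts of 3 and 6 in 20 are near the background. pygo1, a Wnt pathway gene and the next gene after prtga, averaged 8.09 ± 0.13 in the control and 8.52 ± 0.08 in the setb MO1 arrays (SD, n = 3 each), with control values under the level needed to be in the table. pepd (0.31 ± 0.08) and lrch3 (0.20 ± 0.06), 14 and 10 genes away from prtga, rose, with limma adjusted p-values of 0.0205 and 0.0321. The synaptic gene unc13c (-0.68 ± 0.07), gpib (-0.53 ± 0.10) and kctd15b (-0.64 ± 0.15), 8, 5 and 11 genes away from prtga, fell. Around prtgb 0 of 10 genes rose by the limma fit, whether at the adjusted threshold or at an unadjusted p under 0.05, and nrcamb (-0.36 ± 0.07) and rsl24d1 (-0.23 ± 0.06), the next gene after prtgb, fell. nell2a averaged 9.12 ± 0.07 on the control and 8.22 ± 0.13 on the setb MO1 arrays (SD, n = 3 each). The calls on pepd, lrch3 and rsl24d1 were lost without single arrays. That on pepd was lost without control replicate 2 (adjusted p = 0.0827) or setb MO1 replicate 1 (0.0584) or 3 (0.0663). That on lrch3 was lost without any array other than control replicate 1 (0.0628 to 0.0993), and that on rsl24d1 without control replicate 2 (0.0753) or setb MO1 replicate 1 or 2 (0.0502 each).

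**Figure D5:**
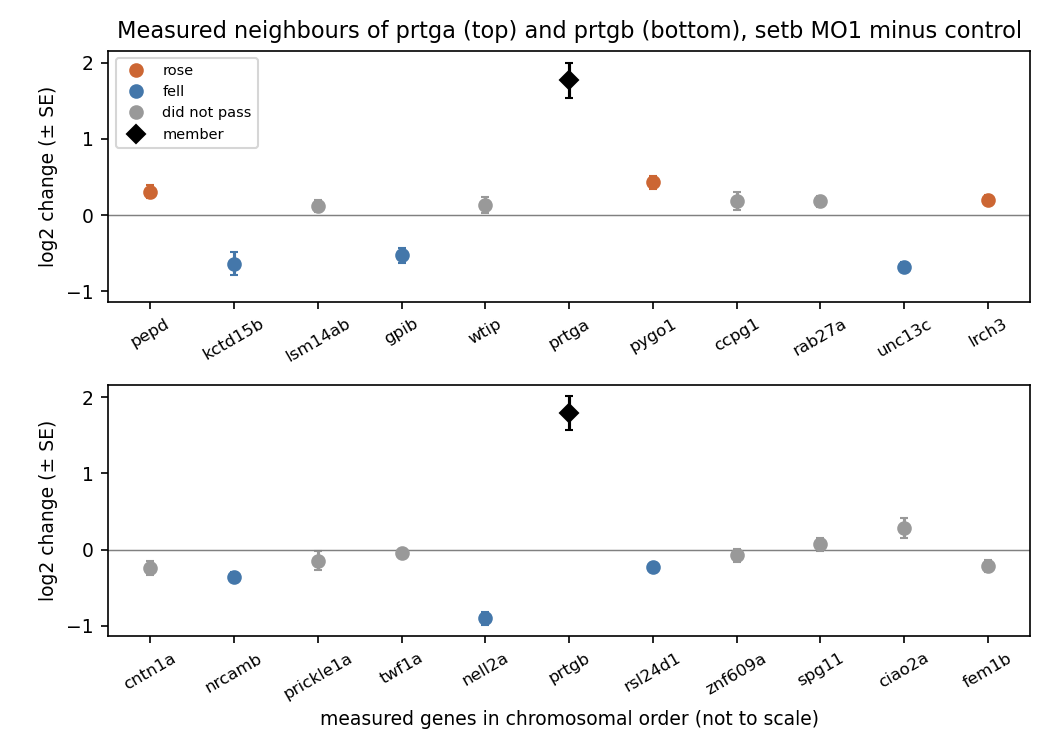
Log2 change of setb MO1 minus control (vertical axis, ± SE from limma, n = 3 and 3) for the 5 nearest measured genes on each side of prtga (top) and prtgb (bottom), in chromosomal order and not to scale; genes without a usable probe set are skipped. prtga and prtgb, as diamonds at 1.77 and 1.79, lie above their neighbours, of which the highest, pygo1, is at 0.43. As prtga and prtgb were chosen on this contrast, that position is not read as a result. Colours also mark calls for pygo1, in the table only through the setb MO1 group, and nell2a, only through the control group.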

How the data were processed

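Expression was measured on 6 Affymetrix arrays. The authors deposited log2 intensities for 15726 probe sets, made with RMA per the submitters' processing notes, a method that corrects background, quantile normalises arrays and summarises probes. The sources used here do not give the RMA software or the filter that left only probe sets reaching 8.45 on at least 1 array. Quantile normalization makes values relative to the array. Platform annotation gave 1 symbol to 11738 probe sets, several to 413 and none to 3575. Entrez identifiers of 11497 matched a RefSeq gene table (GRCz12tu, used for names and gene order only). Where a gene had several probe sets, the one with the highest mean stood for it, which gave 11304 genes, and prtga and prtgb have 1 each.

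The test was limma (version 3.58.1, R 4.3.3, lmFit and eBayes, two-sided) on all probe sets. The adjustment was Benjamini-Hochberg over all of them, with a threshold of 0.05. The fit was also run on simulated data with independent errors and far fewer changed genes than were called here. That run does not check the calls on these arrays. The number of arrays limits the precision. The genes described, the lists and the rule for named genes were chosen with earlier results of these data known. That rule took every measured DCC family, ligand and partner gene, up to 4 and 2 genes per direction of each other list, the neighbours that passed and the 8 nearest profiles. Clone and locus identifiers were passed over for the nearest profiles. The listed names draxin and unc5c were matched as draxina and unc5cb through synonyms. Alternatives changed the normalization, level filter, prior, array weights, replicate block, summary per gene, family of tests, threshold and arrays used.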

Additional observations from a re-analysis of the deposited data

How the results depend on the processing

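The differences of prtga and prtgb stayed positive in every setting tried and moved by less than the spread between replicates, with 1.52 to 1.93 and 1.53 to 1.98 when single arrays were left out and 1.53 and 1.62 with array weights. Those weights rested mostly on control replicate 2 (58.9, against 0.207 to 0.803 for the others). Deviations of same-numbered arrays from their group means had correlations of -0.0056, -0.32 and 0.33 for replicates 1, 2 and 3. For arrays with different numbers the correlations were -0.31 to 0.38, so a pairing by number is not shown. With the replicate block the differences were 1.77 and 1.79, and 0 genes of the lin28 list fell. The block ended the calls on setb (adjusted p = 0.0851), lrch3 (0.0653) and hmga1a (0.109) and gave one on itgb1b.2 (0.0159), which also passed with array weights (0.00233), as did unc5cb (0.0271). Repeated quantile normalization also ended the call on setb (limma adjusted p = 0.0551).

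Over all genes 1482 rose and 1203 fell among probe sets above the median level (6072 genes tested), 4173 rose with array weights, and 1575 rose and 1444 fell at a threshold of 0.01. Above the median level 5 of 13 DCC family, ligand and partner genes fell, 5 of 11 presomitic genes rose and 5 of 18 progenitor genes fell, with fewer genes tested. At 0.01, 2 DCC family, ligand and partner genes, 2 neural crest genes and 3 progenitor genes rose and 0 lin28 list genes fell. With array weights 4 lin28 list genes fell. Without single arrays 1800 to 2689 genes rose and 1671 to 2312 fell, 3 to 5 neural crest and 3 to 6 progenitor genes rose, and 0 to 1 lin28 list genes fell. The causes were not tested.

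Some genes of the DCC family and its ligands that did not pass changed sign. igdcc3 was at -0.0169 after repeated quantile normalization, at -0.0107 with array weights and at -0.0455 to 0.0686 without single arrays. igdcc4 was at -0.0343 with array weights and at -0.0181 to 0.096 without single arrays, and the ranges without single arrays were -0.1175 to 0.0157 for neo1a, -0.0273 to 0.0885 for hjv and -0.1115 to 0.0137 for unc5da. No scan dates or batch labels were used here, so batches were not examined.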
